A study of Mus musculus with 6 samples.

Results

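The nuclear genes for the subunits of the mitochondrial oxidative phosphorylation complexes were examined in cultured mouse cortical cells with and without knockdown of Ybx1, which codes for an RNA-binding protein. Members were chosen by symbol alone: Nduf followed by a, b, c, s or v and a digit (complex I), Sdha to Sdhd (complex II), symbols beginning with Uqcr (complex III), Cox4 to Cox8 (complex IV) and Atp5 (complex V, the ATP synthase). The rule found 84 of the 17920 genes listed, with 39 in complex I, 4 in complex II, 8 in complex III, 16 in complex IV and 17 in complex V. Of these, 79 had enough reads to be tested, beside 13669 genes tested in all. The cells had been taken from mouse cortex at E13.5, cultured, infected with shRNA lentivirus (pLKO.1-Puro), and selected with puromycin, an antibiotic that kills uninfected cells. There were 3 control libraries, labelled WT, and 3 libraries of cells with Ybx1 knockdown, labelled KD. The labels give the tissue as brain and the genotype as WT or KD, name no strain, and do not say which shRNA sequence a library received. The cultures were not sorted, so each library mixes progenitors and neurons, and fewer cells of a type cannot be told apart from less RNA per cell.

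Oxidative phosphorylation is carried out in the inner mitochondrial membrane. Complex I takes electrons from NADH and complex II from succinate, both pass them to ubiquinone, complex III passes them on to cytochrome c, and complex IV to oxygen. Complexes I, III and IV pump protons, and complex V uses the gradient to make ATP. Apart from complex II, each complex also has subunits coded in mitochondrial DNA, which were not analysed here. The developing cortex is of interest because radial glia, the stem cells of the cortex, are known to rely more on glycolysis than the neurons that arise from them, which depend strongly on respiration.

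Depth was alike across the libraries, at 16294635 to 16497505 estimated counts. Ybx1 had 618, 615 and 653 CPM (counts scaled to library size) in WT 1 to 3, and 98.3, 92.2 and 159 CPM in KD 1 to 3. KD libraries therefore held 18.5% of the WT mean, at a log2 fold change of -2.43 (SE 0.18, edgeR quasi-likelihood test with Benjamini-Hochberg adjusted p = 1.8e-04), without overlap between the groups. WT 3 stood apart from WT 1 and WT 2 for the subunit genes. It was the lowest of the 6 libraries for 55 of the 79 tested members (69.6%), as against 16.4% of all genes tested. The median deviation of members from their own mean over the libraries was 0.07 log2 in WT 1, 0.15 in WT 2 and -0.14 in WT 3. In KD 1 to 3 it was -0.04, -0.03 and -0.03. The shift in WT 3 was thus larger than the median log2 fold change of any complex in the fit to 6 libraries, and counts are therefore given with and without that library.

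Knockdown of Ybx1 was accompanied by few and mostly small changes of subunit genes. Of the 79 tested members, 2 rose and 7 fell at an adjusted p under 0.05, which is 11.4% of the members, while 24% of all genes tested were called (12% higher and 11.9% lower). The 2 that rose, Ndufv2 and Ndufs4, both belong to complex I. Those that fell were Sdhc, Ndufs8, Cox7a2l, Uqcrh, Atp5g3, Atp5a1 and Ndufa11, and so came from all 5 complexes. A total of 66 members (83.5%) had a log2 fold change within 0.2 of 0, as had 58.7% of all genes tested. For 12 members (15.2%) the ranges of KD and WT were apart, against a background of 41.6%. Every KD library lay above every WT library for 3 of them (background 21%) and below for 9 (background 20.6%).

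**Figure D1:**
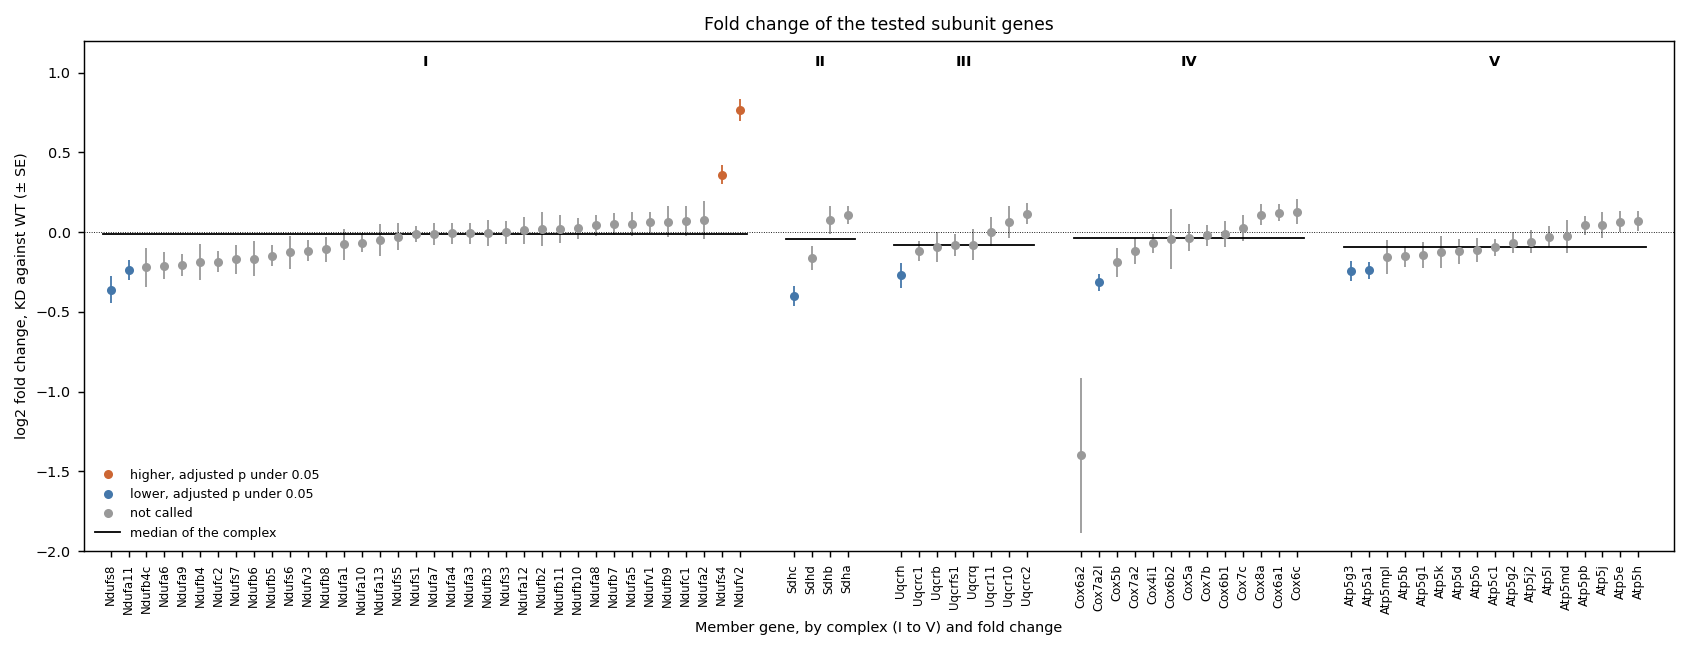
Log2 fold change of KD against WT (y axis, ± SE) for 78 tested subunit genes, ordered within complexes I to V on the x axis, with orange for genes higher and blue for genes lower at an adjusted p under 0.05 and a black line at the median of each complex. Most points lie within 0.2 of 0, Ndufv2 at 0.77 is the highest, and Cox6a2 at -1.40 is the lowest but has an SE of 0.49 and was not called.

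When the replicate number was added as a block, 2 members were higher and 12 were lower, 17.7% of the members in all. Among all genes tested, 18.6% were higher, 18.1% lower and 36.6% called in all with the block. The 9 genes named above kept their calls, and Atp5b, Cox6a2, Ndufa6, Ndufa9 and Ndufc2 joined the genes that were lower. Without WT 3, 2 members were higher and 25 were lower, 34.2% of the members in all. The genes added were Ndufa6, Ndufa9, Ndufb4, Ndufb5, Ndufb6, Ndufb8, Ndufc2 and Ndufs7 in complex I, Sdhd, Uqcrb and Uqcrc1 in complexes II and III, Cox5b and Cox6a2 in complex IV, and Atp5b, Atp5c1, Atp5d, Atp5g1 and Atp5o in complex V, each lower in KD. The background of that fit was 11.7% higher, 11.5% lower and 23.1% in all. Hence the share of members called lay below that of all genes with the 6 libraries and above it without WT 3. WT 3 was singled out for its low member values, so leaving it out moves the fold changes of members down by construction. The calls added without WT 3 are therefore no separate evidence of a fall. Leaving out any library other than WT 3 gave 2 members higher and 3 to 5 lower, with 3 lower without WT 2 and 3 lower without KD 2. The share of all genes called in these fits was not determined. The direction of the 9 called members was the same with and without WT 3, and all 9 were called in both fits.

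Ndufv2 codes for an iron-sulfur core subunit of complex I, which sits with Ndufv1 at the site where NADH is oxidised. It was measured at 52.1, 51.8 and 45.0 CPM in WT 1 to 3 and at 83.5, 81.5 and 88.7 CPM in KD 1 to 3. Every KD library thus lay far above every WT library. The KD mean was 170% of the WT mean, with a log2 fold change of 0.77 (SE 0.07, edgeR adjusted p = 4.0e-04). Its partner Ndufv1, which binds NADH, had a log2 fold change of 0.06 (SE 0.07, edgeR adjusted p = 0.53), with 69.1 ± 5.41 CPM in WT and 72.2 ± 2.86 CPM in KD (SD, n = 3). On the TPM scale, which corrects for length, the ratio of Ndufv2 to Ndufv1 was 0.805, 0.730 and 0.738 in WT 1 to 3 and 1.24, 1.14 and 1.33 in KD 1 to 3. The lower of the pair in every WT library was therefore the higher in every KD library, without a further test of the ratio. Ndufv2 lies on the minus strand of chromosome 17 (GRCm38, positions 66078638 to 66101559 in GENCODE), and the annotation places an snRNA gene and a processed pseudogene on the opposite strand within it.

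Ndufs4 was the other subunit gene that rose. It codes for an accessory subunit that is needed for a stable complex I, and its loss causes Leigh syndrome, a neurodegenerative disease of early life. Its values were 49.3, 49.2 and 44.2 CPM in WT 1 to 3 and 61.6, 61.8 and 59.9 CPM in KD 1 to 3, without overlap. The log2 fold change was 0.36 (SE 0.06, edgeR adjusted p = 0.0040), and the KD mean was 128% of the WT mean. Ndufs6, another accessory subunit near the same arm of the complex, gave a TPM ratio of Ndufs4 to Ndufs6 of 0.297 ± 0.013 in WT and 0.414 ± 0.049 in KD (SD, n = 3). Both genes that rose kept their calls in all 19 alternative fits, with log2 fold changes from 0.67 to 0.82 for Ndufv2 and from 0.31 to 0.42 for Ndufs4.

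In complex I, Ndufs8 and Ndufa11 were lower. Ndufs8, an iron-sulfur core subunit, had 39.9, 48.4 and 39.9 CPM in WT 1 to 3 and 33.7, 32.8 and 33.3 CPM in KD 1 to 3. WT 2 was the highest library, and the KD libraries were close to each other and below all WT libraries. The log2 fold change was -0.36 (SE 0.08, edgeR adjusted p = 0.015), and without KD 2 the adjusted p was 0.060, the highest of the alternatives, which began at 0.0010. Ndufa11, an accessory subunit in the membrane arm, had 58.5, 60.2 and 52.6 CPM in WT 1 to 3 and 48.6, 48.6 and 48.2 CPM in KD 1 to 3. Its log2 fold change of -0.24 (SE 0.06, edgeR adjusted p = 0.027) was the smallest of those called. This call was lost when any library other than WT 3 was left out, with edgeR adjusted p between 0.065 and 0.101. Vmac, which overlaps Ndufa11 on the opposite strand, was not called (27.5 CPM in WT and 26.2 CPM in KD, edgeR adjusted p = 0.62), and the sources do not say whether the counting used strand.

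Ndufs1, Ndufs3 and Ndufs7, further core subunits of complex I, were not called. The log2 fold changes were -0.01 for Ndufs1 and -0.00 for Ndufs3 (edgeR adjusted p = 0.89 and 0.99), whose signs turned under some alternatives. For Ndufs7 the value was -0.17 (edgeR adjusted p = 0.21), and it was called without WT 3 (edgeR adjusted p = 0.019). Ndufs7 lies next to Ndufs8 in the chain of iron-sulfur clusters that leads to ubiquinone, and the TPM ratio of Ndufs8 to Ndufs7 was 0.707 ± 0.068 in WT and 0.610 ± 0.026 in KD (SD, n = 3). The most abundant complex I gene per length was Ndufa4, at 1803 ± 126 TPM in WT and 1885 ± 95.8 TPM in KD, with a log2 fold change of -0.01 (SE 0.07, edgeR adjusted p = 0.94). Its protein is now regarded as a subunit of complex IV, although its symbol places it with complex I. Among the accessory subunits without a call, Ndufa6, Ndufa9 and Ndufc2 had log2 fold changes of -0.21, -0.20 and -0.19, and these were the complex I genes that the block added (edgeR adjusted p = 0.030, 0.018 and 0.014 with the block).

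**Figure D2:**
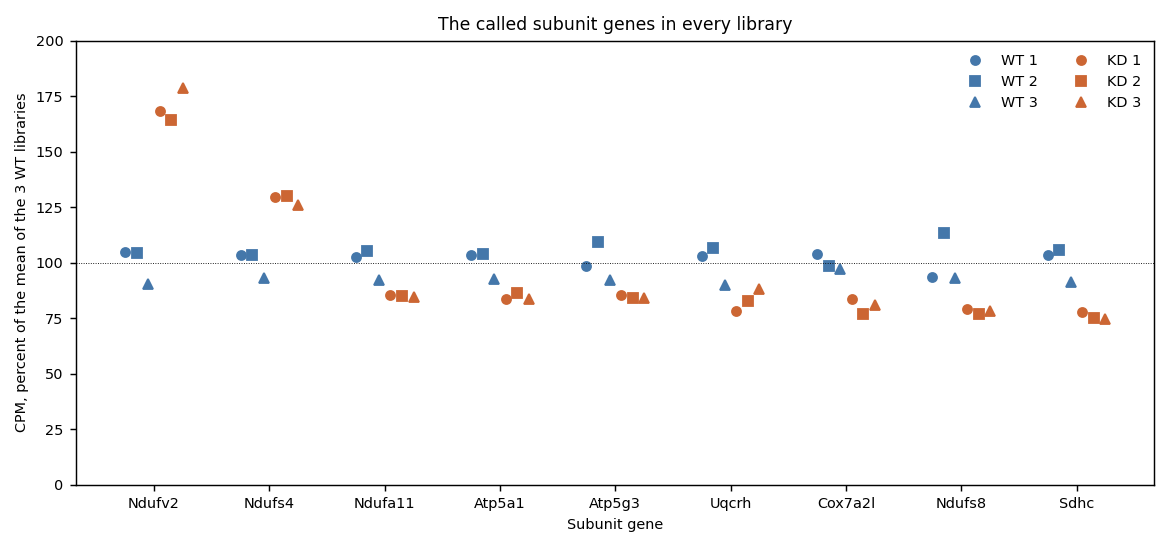
Level of the 9 called subunit genes in each library, as CPM in percent of the mean of the 3 WT libraries (y axis), with WT in blue, KD in orange and the marker shape giving the replicate number. KD libraries lie above all WT libraries for Ndufv2 and Ndufs4 and below all of them for the other 7 genes, and WT 3 (blue triangle) is the lowest WT library for all 9 genes.

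The promoters of Ndufv2 and Ndufs8, core subunit genes of complex I that were called in opposite directions, are given from RefSeq (GRCm38.p6) as the 250 bases before the annotated start, 5′ to 3′ on the minus strand. Both lie outside the gene itself, at chr17:66101560-66101809 for Ndufv2 and chr19:3912775-3913024 for Ndufs8.
Ndufv2: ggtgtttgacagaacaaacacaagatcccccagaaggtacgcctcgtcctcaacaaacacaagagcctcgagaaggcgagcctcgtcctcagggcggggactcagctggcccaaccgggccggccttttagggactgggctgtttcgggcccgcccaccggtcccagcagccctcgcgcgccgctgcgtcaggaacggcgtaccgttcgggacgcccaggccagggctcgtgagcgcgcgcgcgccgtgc
Ndufs8: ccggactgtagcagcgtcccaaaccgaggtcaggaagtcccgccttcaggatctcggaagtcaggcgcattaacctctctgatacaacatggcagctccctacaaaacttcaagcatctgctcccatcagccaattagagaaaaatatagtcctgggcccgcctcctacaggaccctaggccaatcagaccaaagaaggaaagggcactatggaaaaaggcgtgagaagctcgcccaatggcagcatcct
The Ndufv2 stretch holds 68.0% G and C and the Ndufs8 stretch 53.2%. The factors NRF1, GABP (of the ETS family) and YY1 are known for binding promoters of subunit genes, so the letters GCGCATGC, CCGGAAG and AAGATGG were searched for them on both strands, each motif separately, in the 250 bases before and 50 after the start. Capitals would mark a match, and neither stretch holds one, while the Ndufs8 window has CCGGAAG after the start. A promoter was given for 68 of the 84 members. GCGCATGC was found in 14.7% of these and in 3.05% of all 27025 genes with a promoter, CCGGAAG in 25.0% and 9.93%, and AAGATGG in 16.2% and 7.28%. Among the 10899 genes tested that have a promoter the shares were 5.85%, 18.9% and 7.96%. Of the genes for the factors, Yy1 was higher in KD (65.1 ± 2.28 CPM in WT, 79.9 ± 1.05 CPM in KD, SD, n = 3, log2 fold change 0.30, edgeR adjusted p = 0.0045), Nrf1 (0.19) and Gabpa (0.08) were not called (edgeR adjusted p = 0.13 and 0.40), and a match of letters does not show that a factor binds.

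Complex II, the succinate dehydrogenase, held Sdhc, the called subunit gene that fell most. Sdhc codes for a membrane anchor that holds haem and helps to bind ubiquinone. It had 122, 125 and 108 CPM in WT 1 to 3 and 92.1, 88.9 and 87.9 CPM in KD 1 to 3. All KD libraries lay below all WT libraries, with a log2 fold change of -0.40 (SE 0.06, edgeR adjusted p = 0.0034), and this call was kept in all 19 alternatives (-0.46 to -0.34). Sdha, the flavoprotein that oxidises succinate, had a log2 fold change of 0.11 (SE 0.06, edgeR adjusted p = 0.20). Sdhb, the iron-sulfur subunit, had 0.07 (SE 0.09, edgeR adjusted p = 0.58), and -0.03 without WT 3. Sdhd, the other membrane anchor, had -0.16 (SE 0.07, edgeR adjusted p = 0.14), which was called without WT 3 (edgeR adjusted p = 0.026).

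Per length, Sdhc was the most abundant complex II gene in every WT library and Sdhb in every KD library. Sdhc stood at 273, 276 and 245 TPM in WT 1 to 3 and at 216, 210 and 202 TPM in KD 1 to 3, and Sdhb at 248, 240 and 199 TPM and at 240, 258 and 254 TPM. The TPM ratio of Sdhc to Sdhb was 1.16 ± 0.068 in WT and 0.836 ± 0.057 in KD (SD, n = 3), above 1 in all WT libraries and below it in all KD libraries. The membrane anchors Sdhc and Sdhd are present once each in the complex, and their TPM ratio was 2.31 ± 0.048 in WT and 1.96 ± 0.108 in KD (SD, n = 3), also without overlap. Sdhd was lower relative to Sdhb too, with a TPM ratio of 0.503 ± 0.027 in WT and 0.425 ± 0.0061 in KD (SD, n = 3), again without overlap. WT 3 differed little from WT 1 and WT 2 in these ratios, with 1.23 in WT 3, 1.10 in WT 1 and 1.15 in WT 2 for Sdhc to Sdhb. The 4 genes together summed to 782, 788 and 685 TPM in WT 1 to 3 and to 723, 742 and 714 TPM in KD 1 to 3, so that the groups overlapped.

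**Figure D3:**
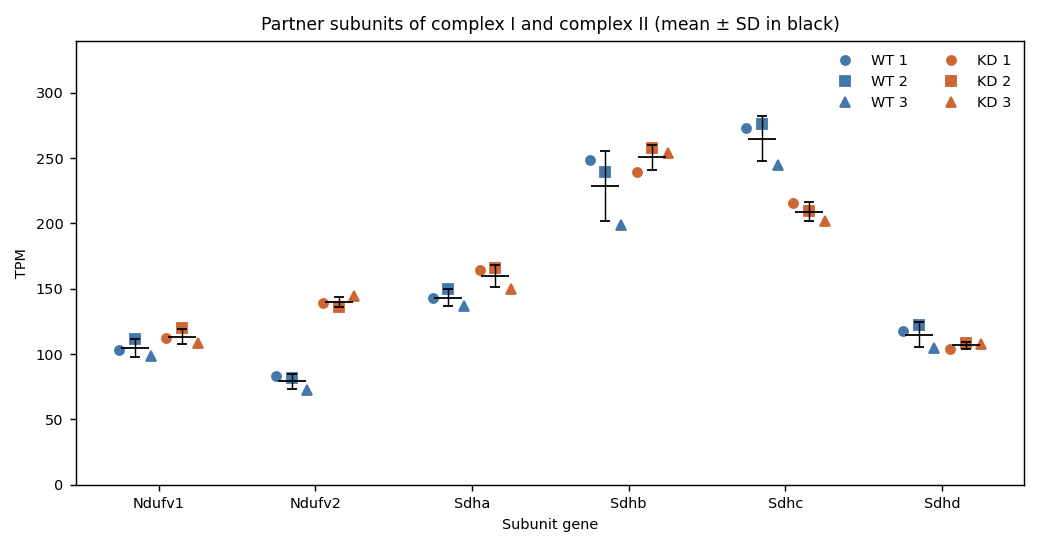
TPM (y axis) of partner subunits of complex I (Ndufv1, Ndufv2) and of the 4 complex II genes in each library, with WT in blue, KD in orange, the marker shape for the replicate number and black bars for the mean ± SD of 3 libraries. Ndufv2 rises from 79.1 to 140 TPM while Ndufv1 is at 104 and 113 TPM, and Sdhc falls from 265 to 209 TPM, below Sdhb.

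In complex III, Uqcrh was called. It codes for the hinge protein, which sits where cytochrome c1 meets cytochrome c. Its values were 58.6, 60.6 and 51.2 CPM in WT 1 to 3 and 44.3, 47.0 and 49.9 CPM in KD 1 to 3, so that KD 3 and WT 3 were close. The log2 fold change was -0.27 (SE 0.08, edgeR adjusted p = 0.034). Leaving out WT 1, WT 2, KD 1 or KD 2 raised the adjusted p to between 0.085 and 0.122, and a processed pseudogene overlaps the gene on the opposite strand. The other 7 complex III genes were not called, none of them had an unadjusted p under 0.05, and DESeq2 and limma-voom also called 1 gene of the complex. Uqcrfs1, the Rieske iron-sulfur protein, had -0.08 (edgeR adjusted p = 0.43), and the core proteins Uqcrc1 and Uqcrc2 had -0.12 and 0.12 (edgeR adjusted p = 0.20 and 0.24). Uqcrc2 had fractional counts in all 6 libraries, meaning that its reads were divided with other sequences. Uqcr10, a small accessory subunit and the most abundant complex III gene per length (668 TPM in WT and 736 TPM in KD), had 0.06 (edgeR adjusted p = 0.69), and -0.04 without WT 3.

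Complex IV, the cytochrome c oxidase, held the gene Cox7a2l. Its protein has a described role in joining complexes III and IV into supercomplexes, which was not examined in these cells. Cox7a2l had 153, 144 and 143 CPM in WT 1 to 3 and 122, 112 and 119 CPM in KD 1 to 3. The groups were apart by more than the range within either of them, and here WT 3 was close to WT 2. The log2 fold change was -0.32 (SE 0.05, edgeR adjusted p = 0.0040), and the call was kept in all 19 alternatives (-0.34 to -0.26). Its relative Cox7a2, the isoform of most tissues, had -0.12 (SE 0.08, edgeR adjusted p = 0.33), with fractional counts in all 6 libraries. Both isoforms were of like abundance in WT (370 TPM for Cox7a2l and 278 TPM for Cox7a2), whereas the heart and muscle isoform Cox7a1 had 2 to 5 counts a library.

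Several complex IV subunits exist as a general and a tissue-specific isoform, and in these cells the general isoform prevailed. Cox4i1 had 957 ± 59.1 TPM in WT (SD, n = 3) and Cox4i2, an isoform of the lung, had 0 to 5 counts a library and was not tested. Cox6b1 stood at 1393 TPM in WT and Cox6b2, known from testis, at 22.6 TPM, and both had log2 fold changes near 0 (-0.01 and -0.04, edgeR adjusted p = 0.93 and 0.89). Cox6a1 was the most abundant complex IV gene, with 2176 ± 111 TPM in WT and 2482 ± 43.9 TPM in KD. Its KD libraries lay above all WT libraries in CPM, but the log2 fold change of 0.12 (SE 0.05) was not called (edgeR adjusted p = 0.13). It was called in 4 of 19 alternatives. Among them were offsets for a trend with length (0.17, edgeR adjusted p = 0.028) and log2(TPM + 1) (0.19, limma-trend adjusted p = 0.034). Cox6a2, the heart and muscle isoform, was counted 29, 48 and 12 times in WT 1 to 3 and 9, 15 and 10 times in KD 1 to 3. The groups overlapped, WT 2 held more than the other WT libraries, and the log2 fold change of -1.40 (SE 0.49, edgeR adjusted p = 0.066) was called with the block (edgeR adjusted p = 0.0032), the alternatives ranging from 0.0031 to 0.24. Cox8a, a small subunit, had 1867 TPM in WT, 2115 TPM in KD and a log2 fold change of 0.11 (edgeR adjusted p = 0.27). It was called in 2 of 19 alternatives, among them the length offsets (0.16, edgeR adjusted p = 0.034). The symbols Cox8b and Cox8c were not analysed here. Of the members that could not be tested, Cox7b2 had 0 to 3 counts and Ndufa4l2 had 1 to 6 counts a library, and Ndufb4b, a near copy of Ndufb4, reached 2.54 estimated counts.

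In complex V, Atp5a1 and Atp5g3 fell. Atp5a1 codes for the alpha subunit of the catalytic head of the ATP synthase. It had 867, 868 and 775 CPM in WT 1 to 3 and 701, 724 and 700 CPM in KD 1 to 3, so that KD was below WT throughout. The log2 fold change was -0.24 (SE 0.05, edgeR adjusted p = 0.013), and the adjusted p was 0.063 without WT 2. Haus1, which overlaps Atp5a1 on the opposite strand, had 9.17 and 9.59 CPM and was not called (edgeR adjusted p = 0.75). The beta subunit gene Atp5b, whose product carries the catalytic sites, had 1195, 1232 and 1028 CPM in WT 1 to 3 and 1030, 1044 and 1034 CPM in KD 1 to 3. WT 3 thus lay at the level of the KD libraries, and the log2 fold change of -0.15 (SE 0.06) was not called with 6 libraries (edgeR adjusted p = 0.12) but was with the block (0.028) and without WT 3 (0.0082), the alternatives reaching 0.36. The TPM ratio of Atp5a1 to Atp5b was 0.540 ± 0.018 in WT and 0.507 ± 0.0064 in KD (SD, n = 3).

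Atp5g1, Atp5g2 and Atp5g3 code for the same mature c subunit, which forms the rotating ring in the membrane. Atp5g3 had 126, 139 and 118 CPM in WT 1 to 3 and 109, 107 and 107 CPM in KD 1 to 3. The log2 fold change was -0.24 (SE 0.06, edgeR adjusted p = 0.026), and the call was lost on leaving out any library other than WT 3, with adjusted p from 0.050 to 0.087. Atp5g1 had -0.15 (SE 0.08, edgeR adjusted p = 0.23) and Atp5g2 had -0.07 (SE 0.07, edgeR adjusted p = 0.51). Of the summed TPM of these c subunit genes, Atp5g3 made up 31.5% ± 0.78 in WT and 29.4% ± 0.62 in KD, Atp5g2 36.7% ± 0.72 and 38.7% ± 1.42, and Atp5g1 31.8% ± 1.46 and 31.8% ± 1.23 (SD, n = 3). Only the shares of Atp5g3 did not overlap between the groups. Atp5md, a small membrane subunit, was the most abundant of all members per length at 2848 ± 396 TPM in WT and 2969 ± 245 TPM in KD (log2 fold change -0.03, edgeR adjusted p = 0.88). Atpif1, the inhibitor of the ATP synthase and not a member by the rule, had a log2 fold change of -0.11 (SE 0.06, edgeR adjusted p = 0.18). Without WT 3 it was -0.17 (edgeR adjusted p = 0.034, with alternatives up to 0.47).

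The 5 complexes differed little from each other. The median log2 fold change was -0.01 in complex I, -0.04 in II, -0.08 in III, -0.03 in IV and -0.10 in V, and -0.05 over all 79 members, beside -0.00 over all genes tested. Members were below 0 in 24 of 37 cases in complex I, 2 of 4 in II, 5 of 8 in III, 9 of 13 in IV and 13 of 17 in V, in all 67.1% as against 50.3% of all genes. Without WT 2 the medians were 0.01, 0.01, -0.00, 0.04 and -0.04 for complexes I to V and 0.01 for all members. Without WT 3 they were -0.08, -0.13, -0.16, -0.11 and -0.15 for complexes I to V and -0.12 for all members. Subunit genes were also short: their median length, from the ratio of counts to TPM, was 13.9% of that of all genes tested. With offsets for a trend with length the medians were 0.02, -0.00, -0.04, 0.01 and -0.06 for complexes I to V, and in that fit 5 members were higher and 7 lower. The share of all genes called with these offsets was not determined. The members added in that fit were Cox6a1, Cox6c and Cox8a, all of complex IV and all higher. WT 3 remained below WT 1 and WT 2 after the length trend was removed, with a median deviation of -0.08 as against 0.01 and 0.07. On the TPM scale the median over members was 0.03 and that over all genes tested 0.05, so that the sign of the member median turned with the scale.

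**Figure D4:**
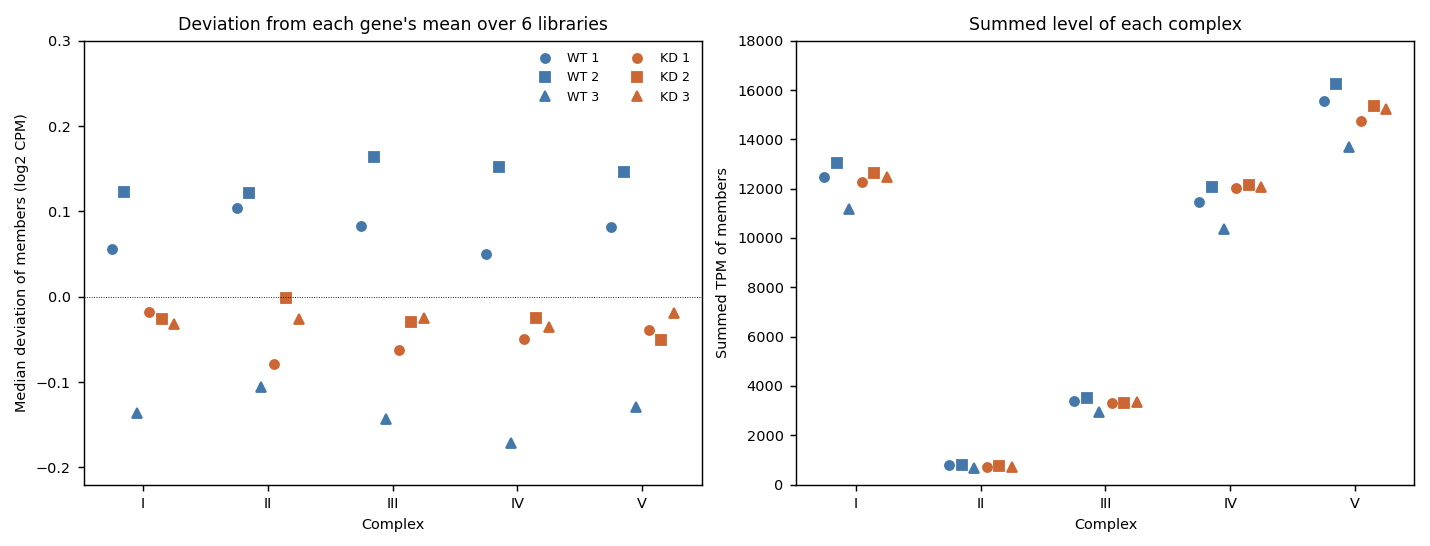
Left, median deviation of the members of each complex from their own mean over 6 libraries (log2 CPM), and right, summed TPM of the members of each complex, by library, with WT in blue, KD in orange and the marker shape for the replicate number. In all 5 complexes WT 1 and WT 2 lie above 0 and WT 3 is the lowest library in deviation and in summed TPM, while the KD libraries lie between them in deviation.

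With members assigned by symbol, the summed TPM placed the complexes in a fixed order in every library. Complex V was at 15163 ± 1326 TPM in WT and 15116 ± 340 TPM in KD, complex I at 12221 ± 959 and 12450 ± 185, complex IV at 11301 ± 882 and 12080 ± 78.0, complex III at 3273 ± 292 and 3316 ± 24.9, and complex II at 752 ± 58.0 and 726 ± 14.6 (SD, n = 3). Complexes I and IV lay closest, and within each library complex I was the higher of them. Ndufa4, at 1803 ± 126 TPM in WT and 1885 ± 95.8 TPM in KD (SD, n = 3), is counted in complex I by its symbol. Counted with complex IV, where its protein is now placed, it would put complex IV above complex I in every library. All members summed to 43672, 45640 and 38817 TPM in WT 1 to 3 and to 43047, 44193 and 43822 TPM in KD 1 to 3. WT 3 stood at 86.9% of the mean of WT 1 and WT 2, and the KD mean was 102% of the mean of 3 WT libraries and 97.8% of that of WT 1 and WT 2. Subunit genes thus made up 4.27% of the TPM in WT and 4.37% in KD, a difference smaller than the spread between the WT libraries.

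Genes that serve oxidative phosphorylation without being members were read against the same background of 24% called. Of 15 tested assembly factors of complex I, 0 were called by edgeR, DESeq2 or limma-voom and 0 had an unadjusted p under 0.05 (median log2 fold change -0.09). Of 33 assembly factors of complexes II to V, 2 were higher and 3 lower (15.2% called, median -0.03). The lower ones were Sco2 and Cox18 at -0.57 and -0.59, which help to deliver copper to complex IV and to insert its core subunit, and Coa3 at -0.25. The higher ones were Cox16 at 0.33, which acts in the assembly of complex IV, and Atpaf2 at 0.23, which chaperones the alpha subunit of the ATP synthase (edgeR adjusted p from 0.010 to 0.029 for these 5). For these factors DESeq2 called 1 higher and 3 lower, and limma-voom 2 higher and 3 lower. Of 18 tested carriers and subunits outside the rule 22.2% were called, which is near the background. Coq7 and Coq8a were higher (0.31 and 0.55) and Coq3 and Coq4 lower (-0.37 and -0.28), all 4 in the synthesis of ubiquinone. In this list DESeq2 called only 1 higher and 1 lower, and limma-voom 2 higher and 2 lower. Cyc1 and Cycs, the cytochromes c1 and c, had -0.14 and -0.17 and were not called (edgeR adjusted p = 0.24 and 0.25). Of 17 enzymes of the TCA cycle, citrate synthase Cs and Ogdh were lower (-0.28 and -0.29) and Idh2 was higher (0.42), with edgeR adjusted p between 0.0053 and 0.0068 (17.6% called).

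Among 17 regulators of mitochondrial gene expression, Gabpb2 (0.50) and Yy1 were higher and Tfb2m (-0.39), a factor that starts transcription of mitochondrial DNA, was lower (17.6% called, background 24%). Tfam, which packages that DNA, and Ppargc1a, a coactivator of mitochondrial genes, had 0.14 and -0.03 and were not called (edgeR adjusted p = 0.22 and 0.92). Of 78 genes for mitochondrial ribosomal proteins, 5 were higher, namely Mrpl3, Mrpl54, Mrpl13, Mrpl49 and Mrps17 at 0.17 to 0.39, and 0 were lower (6.41% called, background 24%, median 0.00). At an unadjusted p under 0.05 the counts were 7 higher and 4 lower, while DESeq2 called 3 higher and limma-voom 4, and both 0 lower. WT 3 was the lowest library for 44 of these 78 genes. Its deviation was -0.09 at the median, so the shift seen for the subunit genes was present here too.

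Some cell type markers were also called, and their part in the values above was not tested. Of the intermediate progenitor markers, 4 of 4 tested genes were higher in KD, with a summed level of 43.1 to 55.2 TPM in WT and 97.4 to 122 TPM in KD. Eomes, Neurog2 and Insm1 rose by 1.57, 1.58 and 1.42 log2. Radial glia markers were higher for 2 of 8 genes (Pax6 and Hes1, with 1 called by DESeq2 and by limma-voom), with sums of 3068 to 3435 TPM in WT and 3486 to 3771 TPM in KD. Cortical neuron markers were higher for 2 of 8 genes (Dcx and Neurod2), with sums of 2644 to 3296 TPM in WT and 2908 to 3431 TPM in KD. For radial glia and for neurons the share called, 25%, was near the background of 24%. WT 3 had the highest sum of the WT libraries for radial glia, intermediate progenitor, neuron and glial markers and the lowest for interneuron and ventral markers. Most of the radial glia sum came from Fabp7 (2705 TPM in WT 3), which was not called (log2 fold change 0.04). The median deviation of radial glia markers was -0.16 in WT 3, the lowest of the 6 libraries. Interneuron and ventral markers included Dlx2 (1.23), the 1 gene of 5 that was higher (407 to 608 TPM in WT, 438 to 662 TPM in KD), and of 7 glial markers Olig1 (-0.54) was lower (362 to 459 TPM and 321 to 378 TPM). Microglial, endothelial and mesenchymal markers summed to at most 9.02 TPM in any library and erythroid markers to at most 15.4 TPM, and of these lists Pdgfrb alone was called (5.51 CPM in WT, 9.08 CPM in KD).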

How the data were processed

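RNA of 6 mouse cortical cultures was sequenced on the DNBSEQ platform after mRNA purification, and the study's methods describe independent experiments. The submitters' processing notes name HISAT2 2.2.1, Bowtie2 2.4.5, RSEM 1.3.1 and the mouse builds GRCm38 and mm10. The authors deposited estimated counts and TPM per gene and library, and between 89.3% and 89.9% of the estimated counts of a library were whole. Fractional values arise where reads are divided between similar genes. The other 12 data columns (FPKM and group averages) were not used. The columns call the controls Ctrl, and each was matched to the WT title of the same number.

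Estimated counts were rounded and tested in R 4.3.3 with edgeR 4.0.16 (TMM scaling, filterByExpr with a minimum count of 10, quasi-likelihood F-test, two-sided, Benjamini-Hochberg adjustment over 13669 genes, threshold 0.05). SE was obtained as the size of the log2 fold change over the root of the F statistic. The test was checked on simulated libraries that had no pairing and no shifted library, so the check does not cover these features of the data. TPM were analysed with limma-trend (limma 3.58.1) on log2(TPM + 1), which understates changes of low genes. TPM from length-corrected counts were used to compare levels between genes. Locations come from GENCODE M21 (GRCm38), promoters from RefSeq.

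Deviations from group means correlated at 0.35, 0.32 and 0.18 between libraries of the same number, and at -0.28 to -0.02 otherwise. All same-number values exceeded 0.1, and the numbers were taken to pair the libraries. Centring on the group means in itself lowers the other correlations where same-number ones are positive. What a number marks is not stated, although the series text speaks of batches of sequencing. The calls, SE and p above come from the fit that leaves this pairing out, unless another fit is named. The replicate block is therefore given beside it. The spread between replicates common to all genes, as a coefficient of variation, was 7.69% in the unpaired fit and 4.71% with the block.

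Members, gene lists and markers were chosen with earlier results of these data known. In each complex up to 3 called members with the largest rise and fall (mean of at least 5 CPM) and the most abundant member per length were named, with core subunits, isoform pairs, the ATP synthase inhibitor and Ybx1. For 1 member the values are not reported here, and counts over members include it. Alternatives covered scaling, filters, DESeq2 1.42.0, limma-voom, TPM, length offsets, the block, leaving out libraries and thresholds. The fit without both libraries numbered 3 was chosen after seeing the data.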

Additional observations from a re-analysis of the deposited data

How the results depend on the processing

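With edgeR and 6 libraries 2 members were higher and 7 lower. Both limma-trend fits on TPM (pseudocounts 1 and 0.1) gave 4 lower, as the calls of Ndufa11, Uqcrh and Atp5g3 were lost. With pseudocount 1 their limma-trend adjusted p were 0.063, 0.055 and 0.053. An adjusted p under 0.01 gave 2 lower. The replicate block gave 12 lower, length offsets gave 5 higher, and length offsets with the replicate block gave 8 higher and 13 lower. Leaving out 1 library gave 3 to 25 lower, the highest without WT 3, and leaving out both libraries numbered 3 gave 20 lower and a complex II median of -0.15. The share of all genes called was determined only for the main fit, the replicate block and the fit without WT 3. The counts from the other fits therefore cannot be set against a background. Other scalings, filters, DESeq2 and limma-voom kept all 9 called genes, and Ndufv2, Ndufs4, Sdhc and Cox7a2l kept their calls in all 19 alternative fits. Among the members named by rule, Atpif1 and Ybx1, the replicate block changed the calls of Cox6a2 and Atp5b and no other.

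Members without a call changed sign as follows, on the log2 scale. Total count scaling gave 0.013 for Ndufa4, 0.0094 for Ndufs1, 0.021 for Ndufs3 and 0.0094 for Cox6b1. Length offsets gave 0.040 for Ndufa4, 0.0049 for Ndufs1, 0.040 for Ndufs3, 0.037 for Cox6b1, 0.0026 for Cox6b2 and 0.029 for Atp5md, and length offsets with the replicate block, in the same order, 0.039, 0.0052, 0.040, 0.037, 0.0039 and 0.029. In that order the values were 0.066, 0.045, 0.059, 0.066, 0.12 and 0.066 on log2(TPM + 1) and 0.066, 0.045, 0.059, 0.067, 0.12 and 0.066 on log2(TPM + 0.1). Ndufs3 was 0.00051 with RLE scaling, 0.00052 with DESeq2, 0.0012 with limma-voom, 0.00057 with the replicate block and 0.0051 without the filter. Without both libraries numbered 3, Sdhb was -0.049 and Uqcr10 -0.089. Leaving out 1 library gave -0.077 to 0.034 for Ndufa4, -0.047 to 0.013 for Ndufs1, -0.065 to 0.057 for Ndufs3, -0.095 to 0.074 for Cox6b1, -0.17 to 0.044 for Cox6b2, -0.14 to 0.075 for Atp5md, -0.027 to 0.14 for Sdhb and -0.035 to 0.14 for Uqcr10. The cause of these changes was not tested. With 3 libraries a group and a median SE of 0.08 for members, small changes could not be told from replicate spread, and the low counts of Cox6a2 widen its error further.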
